A study of Mus musculus with 2 samples.

Results

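Isolated Tle3 peaks are the called binding regions on chromosomes 1 to 19 whose nearest other peak on the same chromosome lay more than 300000 bp away, measured from edge to edge. They numbered 613 of 5096 autosomal peaks (12.0%, 95% exact binomial interval 11.1 to 13.0%) in a list of 5136 peaks in all, and the other 4483 autosomal peaks are the comparison group. The members were chosen by measured values, the deposited start and end of each peak, so their number and their distances are descriptions, while width and score were not used to choose them. Binding of Tle3 was mapped by ChIP-seq, the sequencing of DNA that is pulled down with an antibody against a chromatin-bound protein, in wild-type C57BL/6 mice aged 8 to 10 weeks. Both groups of the study were lineage-negative, cKit-positive bone marrow cells, a mixed progenitor population. The first was 1 library made with an anti-Tle3 antibody, and the second was 1 control library, whose title and antibody entry say normal IgG while its source name says input. The source names speak of T cells, whereas the cell type field says hematopoietic progenitors, and a peak list holds no expression values to check this. The number of animals behind each library is not given in the labels. All peaks come from 1 list and there is no replicate, so differences between isolated and other peaks were given no test, and intervals cover counting error only.

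Tle3 is a Groucho family corepressor. It cannot bind DNA by itself but docks on sequence-specific factors, among them HES, TCF/LEF and RUNX proteins, and recruits histone deacetylases there. RUNX proteins are major regulators of blood progenitors. Binding regions of chromatin regulators are often crowded in gene-rich parts of the genome, and a region with no neighbour over a long distance can be a promoter in a gene-poor stretch or a distant enhancer. A peak list alone does not tell these apart. Positions are given as deposited and taken to be mm9, the mouse build named by the submitters, since the list itself names none. On chromosome 16 many peaks matched gene starts of a table of another build, GRCm38.p6. On the 17 autosomes other than 16 and 18, by contrast, 2.89% of peaks (2.44 to 3.41%) lay within 500 bp of such a start. The shares there were 1.98% and 1.66% after shifts of 20 kb. Chromosome 18 was not in this count. This comparison with gene starts did not by itself settle the build, and no other check of the build was made. No sequence or annotation of mm9 was used here, so the regions are named by position, their base sequences are not printed and none was assigned to a gene.

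The isolated peaks were about as strong as the others and slightly narrower. The isolated peaks had a median width of 626 bp (quartiles 522 and 804 bp), against a median of 663 bp and quartiles of 536 and 825 bp for the other autosomal peaks. The difference between the medians was -37 bp, or -5.58% of the width of the other peaks. The difference was -14 bp at the lower quartile and -21 bp at the upper quartile, and at the 90th percentile the widths were 1021 and 1019.8 bp. The score is the peak caller's measure of confidence against local background, and it starts at 50. Its median was 69.26 in the isolated and 68.82 in the other peaks, and its upper quartile was 98.64 and 99.3. Of the isolated peaks, 420 scored at least 60 (68.5%, 64.7 to 72.2%), beside a background of 66.6% over all autosomal peaks. At least 100 was the score of 149 (24.3%, 21.0 to 27.9%), beside 24.5% of all autosomal peaks. For a score of at least 200 the count was 32 (5.22%, 3.60 to 7.29%), beside 4.42% of all, and 3 reached at least 400 (0.489%, 0.101 to 1.42%), beside 0.51%. In each of these 4 score classes the interval for the isolated peaks held the background share.

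**Figure D1:**
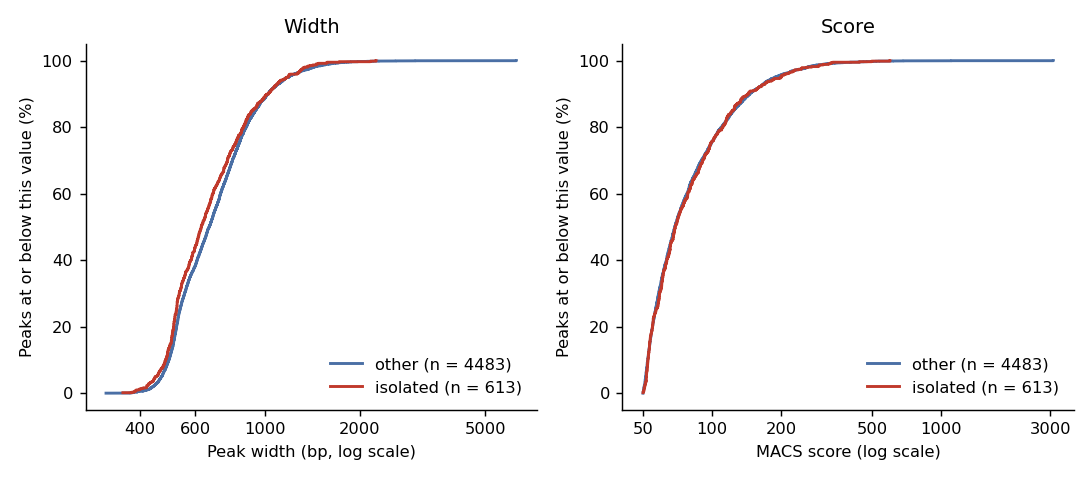
Share of peaks (%) at or below each width (left, bp, log scale) and each score (right, log scale) for the 613 isolated (red) and 4483 other autosomal peaks (blue). The width curve of the isolated peaks runs to the left of the other curve around the medians of 626 and 663 bp and meets it near 1000 bp, while the score curves lie on each other up to about a score of 200.

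Wide regions occurred among the isolated peaks at the background share. Of 613, 65 were wider than 1000 bp (10.6%, 8.28 to 13.3%), beside 11.1% of all autosomal peaks, and 2 were wider than 2000 bp, beside 0.255%. The widest isolated peak measured 2252 bp, and 8 of the other peaks were wider than that. At a lower cut of 500 bp the shares parted slightly. Of the isolated peaks, 522 were wider than that (85.2%, 82.09 to 87.88%), and the 87.91% of all autosomal peaks lay just above this interval. At the narrow end, 8 isolated peaks (1.31%, 0.565 to 2.56%) and 25 other peaks (0.558%, 0.361 to 0.822%) were under 400 bp. These intervals overlap.

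Because score and width go together, the widths were also compared among peaks of like score. From 50 to under 60, where 193 isolated peaks fell, the median widths were 524 bp for isolated and 528 bp for other peaks. From 60 to under 100, the class of 271 isolated peaks, they were 643 and 677 bp. From 100 to under 200 they were 883 bp (117 isolated peaks) and 897 bp. At 200 and over they were 1100 bp (32 isolated peaks) and 1156 bp. The isolated peaks thus had the lower median in all 4 classes, by 4 to 56 bp. The relation of score to width had a Spearman's rho of 0.71 over the 613 isolated peaks and 0.74 over the 4483 others. Both values describe peaks of 1 list whose score and width come from the same reads.

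Members lay from just beyond the limit to several megabases away from the nearest other peak. The distance to the nearest other peak had a median of 533 kb, with quartiles of 373 and 900.2 kb, against a median of 38.7 kb in the other autosomal peaks. It was over 500 kb for 327 members (53.3%), over 1 Mb for 139 (22.7%) and over 2 Mb for 51 (8.32%). The longer of the gaps beside a member had a median of 1.51 Mb. From the neighbour on the left to the neighbour on the right, the stretch held by the member alone had a median of 2.17 Mb and a range from 0.631 to 19.6 Mb, over the 593 members with a peak on both sides. The remaining 20 members were the first or last peak of their chromosome and have a neighbour on 1 side only. Together the members covered 426.7 kb, which is 11.7% of the base pairs in autosomal peaks. Yet 39.2% of the span between the first and last peaks of the autosomes lay nearer to a member than to any other peak.

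Strength and width of a member had little relation to how isolated it was. Over the 613 members, Spearman's rho of distance with score was 0.03 and of distance with width 0.01. The members from 300 to 500 kb from their neighbour (286 peaks) had a median score of 71.3 and a median width of 629.5 bp. Those from 500 to 1000 kb away (188 peaks) had 66.1 and 611.5 bp. The 139 members over 1000 kb away had 68.98 and 645 bp, and 26.6% of them (19.5 to 34.8%) scored at least 100. A member's score also had little relation to that of its nearest peak, with a rho of -0.05. Nearest peaks can serve more than 1 member, so these pairs are not independent.

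**Figure D2:**
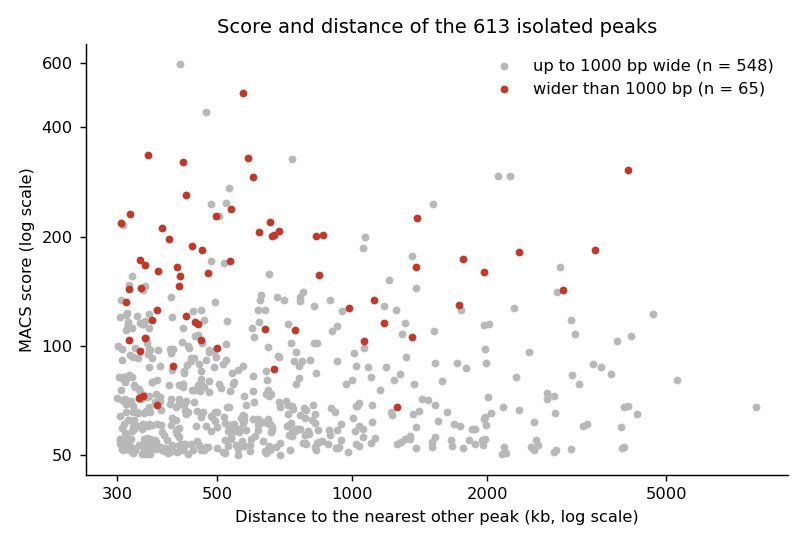
Score (log scale) of each of the 613 isolated peaks against the distance to its nearest other peak (kb, log scale), with the 65 peaks wider than 1000 bp in red. Peaks over 1000 kb from any other scored up to 306.24, and the 3 scores above 400 lie at distances under 600 kb.

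Across all autosomal peaks, lower median widths began below the limit of 300 kb rather than at it. Up to 100 kb the median width of the 4 distance classes lay between 669 and 679 bp. It was 645 bp from 100 to 200 kb (740 peaks) and 627 bp from 200 to 300 kb (313 peaks), close to the 629.5 bp of the first class of members. Farther out it was 611.5 bp from 500 to 1000 kb and again 645 bp over 1000 kb. The quartile ranges of all classes overlapped. The share wider than 1000 bp was 18.0% (14.2 to 22.3%) among the 372 peaks with another within 1 kb. It was 7.35% (4.71 to 10.8%) from 200 to 300 kb and between 9.04% and 11.9% in the 3 classes of members. Median scores went from 70.8 within 1 kb to 66.0 from 200 to 300 kb. Right at the limit, the 5 members with the shortest distances, 300560 to 304065 bp, had widths from 474 to 910 bp and scores from 55.42 to 120.37. The 5 peaks just outside it, at 296774 to 298667 bp, had widths from 459 to 769 bp and scores from 51.29 to 95.41, so values on both sides overlapped.

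**Figure D3:**
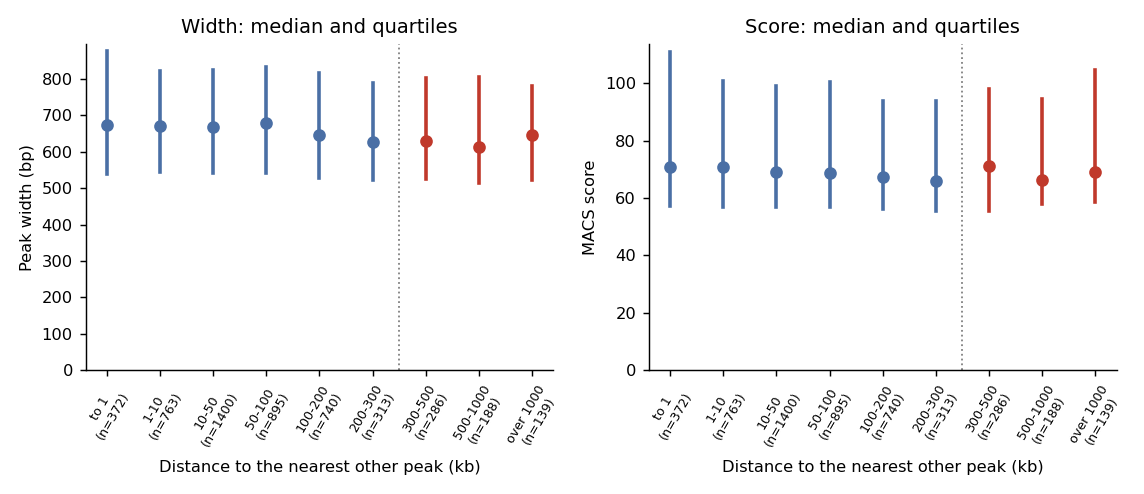
Median (point) and quartiles (bar) of width (left, bp) and score (right) of autosomal peaks by distance to the nearest other peak in kb, with the number of peaks in brackets. Blue classes are the other peaks and red classes the isolated peaks, divided by the dotted line at 300 kb, and the median width is already down to 627 bp in the class just left of that line.

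The strongest isolated peak lay on chromosome 11 at 108872634 to 108873594, with a score of 599.63 and a width of 961 bp. It had no other peak for 413487 bp on the right and 1463118 bp on the left. Only 6 of the other autosomal peaks scored higher, and 12 of the 100 highest scoring autosomal peaks were isolated, near the 12.0% of isolated peaks in the list. The next was on chromosome 6 at 94710462 to 94711525 (score 498.19, width 1064 bp). The region on its right, at 96965869 to 96966595 with a score of 293.97, lay 2254343 bp further on and was itself isolated, so these strong members are neighbours across an empty stretch of over 2 Mb. A further member of chromosome 6, at 89371212 to 89372486, scored 330.11. A score of 441.19, exceeded by only those of chromosomes 11 and 6 among the members, was found at 123406900 to 123407650 on chromosome 9 in a peak of 751 bp, whose nearest peak, 471908 bp away, scored 60.34.

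Strong members were spread over 11 autosomes. The 20 highest scores went down to 227.44, a value above those of 96.9% of autosomal peaks. Chromosome 2 had 1 of them, at 44782274 to 44783357, with a score of 336.73. On chromosome 4 there were 3, at 97855409 to 97856247 (score 328.32), 47365320 to 47366772 (score 291.18) and 89035460 to 89036458 (score 247.42). The last of these had 5982713 bp without a peak to its right. Chromosome 5 likewise carried 3, at 147072461 to 147073239 (score 272.83), 120467757 to 120468552 (score 245.87) and 90794642 to 90795974 (score 239.02). Chromosome 17 carried 3 as well, of which 2 were the first and last peaks of that chromosome, at 3114531 to 3115394 (score 246.59) and 88839510 to 88841229 (score 230.21). The other was at 30655402 to 30656681 (score 228.01). Chromosome 14 held a peak at 118770258 to 118771158 with a score of 293.92 and no other peak within 2105959 bp. The last of the 20 was a peak of chromosome 8, at 41596264 to 41597131, whose nearest peak, 505648 bp away, had the score of 50.01.

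The widest members overlapped in part with the strongest. The greatest width, 2252 bp, was that of a chromosome 18 peak at 39648603 to 39650854, which scored 321.96 and had rank 7 in score. A second member of chromosome 18, at 10181031 to 10182506, was 1476 bp wide and scored 260.31. Chromosome 13 held the next in width, 2158 bp at 74665985 to 74668142, with a score of 115.85. The third was the last peak of chromosome 17, 1720 bp wide. The peak at 86570538 to 86572109 on chromosome 11 was 1572 bp wide with a score of 200.29, and that at 140571420 to 140572986 on chromosome 6 was 1567 bp wide with a score of 173.92. A width of 1453 bp was found at 14672102 to 14673554 on chromosome 19 (score 164.69) and also for the member of chromosome 4 scoring 291.18. The least strong of the 10 widest was a peak of 1388 bp on chromosome 3, at 101407675 to 101409062, with a score of 104.18. Among the 100 widest autosomal peaks, 8 were isolated, where 12.0% of all autosomal peaks were.

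The most isolated peaks were mostly ordinary in strength. The peak at 87815623 to 87816148 on chromosome 14 had no other within 7934227 bp, was 526 bp wide and scored 67.85, near the median. On chromosome 1, the peak at 21950293 to 21950863 stood 5271107 bp from the next and scored 80.64. The third in distance, on chromosome 15 at 50529094 to 50529775 (4671993 bp), scored 122.58. Of the 10 members with the longest distances, 1 was also among the strongest and the widest. This was the peak at 92827884 to 92829299 on chromosome 12, with a score of 306.24, a width of 1416 bp and 4102708 bp to the nearest peak, which scored 54.97. The other member of chromosome 12 among the 10, at 45369944 to 45370548, scored 68.33 at a distance of 4106527 bp. Another peak of chromosome 14, at 41779606 to 41780462, scored 106.66 at 4164462 bp, and the peak at 17586781 to 17587275 on chromosome 6 scored 67.84 at 4028617 bp. The remaining 3 were the first or last peak of their chromosome, on chromosomes 18 (89063299 to 89063899, score 64.79), 3 (157609906 to 157610656, score 52.56) and 13 (5104448 to 5104963, score 52.41).

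Along the chromosomes, 198 members had no other member as the next peak on either side, and the other 415 lay in 143 rows of 2 or more successive members. The nearest peak of 276 members was itself isolated. These counts come from the distances that chose the members, since a peak beside a member already has 1 gap of over 300 kb, and they are given as a description only. The longest row, chosen after its values were seen, held 13 members over 16.7 Mb of chromosome 13 (68720657 to 85429436). Its scores ran from 52.57 to 215.46 with a median of 105.48, and its widths from 466 to 2158 bp. A row of 8 members spanned 14.3 Mb of chromosome 4 (84320600 to 98590525), with scores from 51.56 to 328.32 and a median of 72.88. There were 3 rows of 7 members. On chromosome 16 (50589873 to 76373745) the row covered 25.8 Mb and held weak peaks, with scores from 52.8 to 72.15. On chromosome 15 (39775372 to 57865912) it covered 18.1 Mb and had a median score of 65.34. On chromosome 9 (79640467 to 86165696) it covered 6.53 Mb, with scores from 51.8 to 183.72 and a median of 97.59.

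The share of isolated peaks differed 4.47-fold between autosomes. It was highest on chromosome 18, where 33 of 120 peaks were isolated (27.5%, 19.7 to 36.4%), followed by chromosome 13 with 41 of 202 (20.3%, 15.0 to 26.5%) and chromosome 3 with 41 of 224 (18.3%, 13.5 to 24.0%). The lowest shares were those of chromosome 11 with 27 of 439 (6.15%, 4.09 to 8.82%), chromosome 8 with 22 of 305 (7.21%, 4.58 to 10.7%) and chromosome 7 with 26 of 343 (7.58%, 5.01 to 10.9%). The intervals of the lowest and highest 3 chromosomes did not overlap, whereas neighbours in the order overlapped throughout. The intervals treat peaks as independent, although the same gap enters the status of the peaks on both its sides. These shares come from the distances that chose the members, and the chromosomes are named for their extreme values, so the shares are a description and no test. Chromosome 1 had the most members, 47, among its 317 peaks (14.8%, 11.1 to 19.2%), and chromosome 16 the fewest, 20 of 170 (11.8%, 7.34 to 17.6%). Chromosomes 18, 13, 3 and 14 together held 141 members, which is 23.0% of all isolated but 12.4% of all other autosomal peaks.

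**Figure D4:**
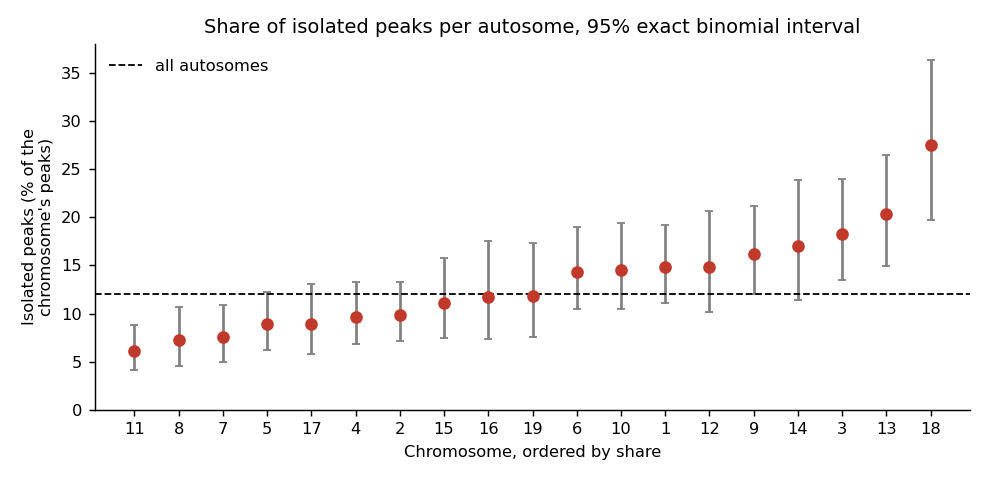
Isolated peaks as a share (%) of each autosome's peaks, ordered from the lowest to the highest, with 95% exact binomial intervals, and the share over all autosomes (12.0%) as a dashed line. Chromosome 11 is lowest at 6.15% and chromosome 18 highest at 27.5%, and the chromosomes between them overlap with their neighbours.

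A distance rule depends on how densely a chromosome is filled, and the share followed density. Over the 19 autosomes, Spearman's rho of the share isolated with peaks per megabase of span was -0.81 (Pearson's r -0.71), where the span runs from the first to the last peak. With protein-coding genes per megabase, counted from the RefSeq gene table of GRCm38.p6 without its coordinates, rho was -0.71 (r -0.63). Peaks themselves enter both sides of the first relation, and the span enters both relations with density, so these values are descriptions. Per megabase, isolated peaks ranged over a smaller ratio than the others. Both densities depend on the distances that chose the members, so this is a description, and the difference was not tested. They ran from 0.174 per Mb on chromosome 8 to 0.392 on chromosome 18, a ratio of 2.25, against 1.03 to 3.49 per Mb for the other peaks, a ratio of 3.37. The rho between both densities was -0.22. Chromosome 19 combined many other peaks (2.83 per Mb) with many isolated ones (0.379 per Mb). Chromosome 9 had 0.370 isolated peaks per Mb at 1.91 other peaks per Mb, close to the 1.89 over all autosomes. Chromosomes 7 and 8 held few isolated peaks, 0.174 per Mb on both, at 2.13 and 2.24 other peaks per Mb.

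**Figure D5:**
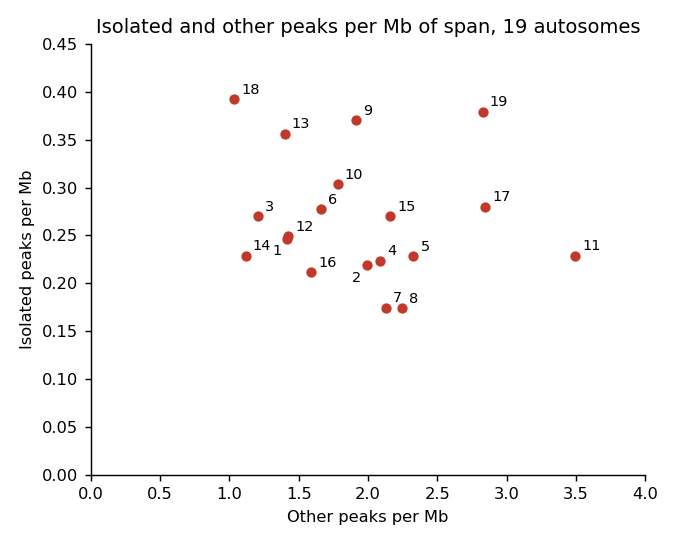
Isolated peaks per Mb against other peaks per Mb for the 19 autosomes, each point labelled with its chromosome. Isolated peaks lie between 0.174 and 0.392 per Mb on every autosome, while the other peaks run from 1.03 to 3.49 per Mb.

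Within chromosomes, the narrower median width of isolated peaks was seen in 15 of 19 autosomes. It was 111 bp narrower on chromosome 6 (545 against 656 bp), 86.5 bp narrower on chromosome 11 (596 against 682.5 bp) and 84.5 bp narrower on chromosome 8 (606.5 against 691 bp), where no member was wider than 1000 bp. The exceptions were chromosomes 1, 3, 9 and 14, with chromosome 3 at 712 bp for 41 isolated and 644 bp for 183 other peaks. Median scores of the isolated peaks were higher in 11 autosomes and lower in 8. They were farthest above the others on chromosome 14, at 83.0 for 26 members against 69.0, and farthest below on chromosome 16, at 59.2 for 20 members against 70.6. A score of at least 100 was found for 14 of 41 members on chromosome 13 and 9 of 26 on chromosome 14. At the low end it was found for 3 of 22 on chromosome 19 and 4 of 27 on chromosome 15. Over all members the share was 24.3%, beside 24.5% of all autosomal peaks, and these chromosomes are named for their extreme values. The strongest member of chromosome 1 scored 217.95, at 80336456 to 80337822, and that of chromosome 7 scored 127.53, at 78387309 to 78387806.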

How the data were processed

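The deposited data were 1 list of peaks for 1 Tle3 library and 1 control library. The submitters' processing notes name the aligner Bowtie2, the peak caller MACS 1.4 and build mm9, and for parameters, filters and duplicate reads nothing is stated in these sources. The deposited score is the peak caller's own, in MACS 1.4 the negative log10 of the peak's p-value multiplied by 10, and it ranged from 50 to 3100. It is the authors' value and served only to describe and rank peaks within the list. The list has no read counts, so depth is unknown.

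Starts were converted to positions counted from 1, and distances were measured in base pairs between edges. No peaks overlapped. Distances were tested on simulated data. Shares carry 95% exact (Clopper-Pearson) intervals that treat peaks as independent. The members, lists and measures were chosen with earlier results of these data known. The 20 highest scoring, 10 widest and 10 most isolated members are named, together with the strongest member of a chromosome where it is discussed. Gene lists, motifs, gene features and base composition were not analysed here, since no genome or annotation of mm9 was used. Distance to gene starts of GRCm38.p6 was used only to check the build and, on chromosome 16, in a count given in the closing section, both added after the data were seen. Alternatives were other distance limits, minimum scores, merging, terminal peaks and chromosome X. Shares were computed with SciPy 1.17.1, tables with pandas 2.3.3 under Python 3.11.15, and figures with matplotlib 3.10.9.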

Additional observations from a re-analysis of the deposited data

How the results depend on the processing

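The lower median width of isolated peaks kept its direction in all 7 settings tried, between -41 and -31.5 bp, as did the share wider than 1000 bp, between -1.94 and -0.391 percentage points. The difference in median score did not keep a direction and was reversed in 4 of the 7 settings. It was 0.44 as reported but -0.935 with a limit of 200000 bp, -1.24 with 500000 bp and -0.135 after merging peaks within 1000 bp. Among only the peaks scoring at least 100, with isolation measured again, it was -6.46, the largest of these differences. The share scoring at least 100 differed by -0.230 percentage points as reported, by 0.606 with a limit of 500000 bp and by 0.125 with chromosome X added, and has no value at a score of at least 100, which every peak then passes. The number of isolated peaks was 926 (18.2%) at 200000 bp and 327 (6.42%) at 500000 bp. Measured again among peaks scoring at least 60 and at least 100, isolated peaks made up 20.3% and 44.7%, since fewer peaks enter. Chromosome 18 had the highest share as reported, chromosome 13 at 500000 bp (11.9%), chromosome 12 at a score of at least 100 (68.1%) and chromosome X once added (42.5%). Settings for gene starts, GC content and motifs on mm9 were not run. No paired analysis was possible because each antibody has only 1 library. Without read totals, weaker sites under the score of 50 that could have ended a member's isolation cannot be counted. Gaps of the assembly and repeated or unmappable sequence, at the members or beside them, were not examined.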

Other observations

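Chromosome X, left out by the rule, held 17 isolated peaks among its 40 (42.5%, 27.0 to 59.1%). Their median width was 583 bp and their median score 71.2, against 550 bp and 59.5 for the other 23. The strongest, at 20508814 to 20509594, scored 317.48.

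Position against gene starts was compared between isolated and other peaks on chromosome 16 alone, after the data were seen. Earlier work on this list had found matches there to gene positions of GRCm38.p6, another build than mm9. Gene starts came from the RefSeq promoter table of GRCm38.p6, and whether both builds share coordinates along the whole chromosome was not examined, so no gene is named. Of the 20 isolated peaks of chromosome 16, 9 midpoints (45.0%, 23.1 to 68.5%) lay within 500 bp of a gene start in that table. Of the 150 other peaks, 53 did (35.3%, 27.7 to 43.5%). After a shift of 20 kb to higher positions no isolated peak did (0 of 20, upper bound 16.8%), and after the same shift to lower positions none did either. For the other peaks these counts were 0 and 2. Widening the window to 5000 bp left the isolated count at 9 of 20 and raised that of the other peaks to 67 of 150 (44.7%, 36.6 to 53.0%). In this wider window 28 of the 150 other peaks (18.7%) were counted after either shift of 20 kb, against 1 and 0 of the 20 isolated peaks. The unshifted intervals overlap in both windows, so a difference between isolated and other peaks in their share near gene starts was not detectable with 20 members.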
